A study of Mus musculus with 2 samples.

Results

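The p53 target genes Cdkn1a, Phlda3, Mdm2, Ccng1, Bax, Trp53inp1, Sesn2, Zmat3, Aen and Bbc3 were followed by symbol across the cell classes of the neonatal mouse spinal cord. They are 10 of the 32285 genes listed for both libraries. The list was selected on the levels of its genes in these same 2 libraries, as it was put together with results for SMA against Con already known, so the levels below are a description of its members and carry no test. Each group was a single 10x Genomics 3' library, and a 3' library counts the tagged end of each transcript once per unique molecular identifier (UMI).

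The library labelled SMA was made from mice of the genotype mSmn-/-, hSMN22tg/0, the severe form of the Taiwanese model of spinal muscular atrophy, a motor neuron disease caused by too little SMN protein. Mice of the genotype mSmn+/-, hSMN22tg/0 gave the library labelled Con, and they were littermates of the SMA mice. These controls had 1 working mouse Smn allele, and the human SMN2 transgene was present in both groups. All mice were FVB and were taken at postnatal day 4, and whole spinal cords were pooled within a group and dissociated with trypsin and collagenase. With 1 pool per group, differences between animals could not be measured. Every interval below covers counting error only, at the 95% level, and sex, dissociation and genotype cannot be told apart.

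The transcription factor p53 is held at a low level by Mdm2, which marks it for degradation, and by Mdm4, which blocks its activity. DNA damage, ribosomal stress and faults in splicing release p53, which then binds response elements near its target genes. Those genes arrest the cell cycle, repair DNA, limit growth signals or start apoptosis, and Mdm2 is itself a target that closes the loop. SMN assembles the particles of the splicing machinery, and p53 activation is a known event in motor neurons of SMA mice.

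A p53 response element is made of 2 copies of a 10-letter unit, each with a C and a G at its core. It was searched in the RefSeq promoter windows of GRCm38.p6, which run from 250 bases before to 50 bases after each annotated start. A match had both units side by side, the C and G of each core in place and at most 3 of the other 16 letters off. The element reads the same way on both strands, so a single search covered them. Of the 8 members with a window, 4 held a match, and these are shown because they are the members whose promoter window carries the letters of the element. Over all windows searched, 453 of 32851 held one (1.38%), as did 441 of 27025 genes (1.63%). Capitals mark the core C and G of each unit, and each sequence is written 5' to 3' on the strand of its gene.
Cdkn1a: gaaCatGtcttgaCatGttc
Ccng1: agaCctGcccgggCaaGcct
Bbc3: ctgCaaGccccgaCttGtcc
Aen: gggCttGtccgggCaaGgag

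The Cdkn1a sequence lay at chr17:29090928-29090947 on the plus strand, with 1 letter off. It ran from base -51 to base -32 relative to the upstream annotated start. The window of the downstream start, chr17:29093519-29093818, held no match. For Ccng1 the match lay at chr11:40755462-40755481 on the minus strand, from -195 to -176, also with 1 letter off. The Bbc3 match, at chr7:16309486-16309505 on the plus strand, had 3 letters off. It ran from -97 to -78 relative to the most upstream start searched, and the windows of the other Bbc3 starts held no match. The Aen match, at chr7:78895937-78895956 on the plus strand, had 3 letters off and lay in the windows of 2 annotated starts, from base 10 to base 29 after one and from -121 to -102 before the other. The windows of Bax, Mdm2, Phlda3 and Sesn2 held no match, which says only that these letters are not in this window. Promoter windows of Trp53inp1 and Zmat3 were not analysed here.

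The libraries held 26921 barcodes and 85872075 UMIs (SMA) and 25419 barcodes and 97894084 UMIs (Con), and 8163 barcode sequences were listed for both. Xist, the RNA of the inactive X chromosome, had 1.53 counts per 1000000 UMIs (CPM) in the barcodes listed for SMA alone against 613 CPM in the Con cells. Its level in the SMA copies of shared barcodes, 537 CPM (523 to 551), was near that of Con. The SMA copies of shared barcodes were left out, which kept 6787 SMA cells and 8928 Con cells with medians of 6109 and 6225 UMIs, and values with the copies kept are given where they change a result. Of 33 clusters, 29 were named from marker genes and 4 stayed unnamed. Each named cluster had 5 to 10 of the markers of its class detected. In 11 classes each library had at least 50 cells. Neuron-like cells, with 44 SMA and 26 Con cells, fell below that number.

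Smn1, the gene disrupted in the model (chr13:100124852-100137690, GRCm38), was read first. Over all named cells other than erythroid-like it had 2072 and 2359 UMIs, 52.0 CPM (49.8 to 54.3) in SMA and 51.3 CPM (49.3 to 53.4) in Con, and the log2 ratio was 0.02 (-0.07 to 0.11). A lower Smn1 level in the library labelled SMA was thus not detectable. The 3' tag may lie outside the disrupted part, and reads of the human transgene may map to the mouse gene, so this count does not check the labels. Directions below are therefore those of the library labelled SMA relative to the library labelled Con.

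Across all named non-erythroid cells, 6027 SMA and 7256 Con, each of the 10 genes had a higher level in the SMA library. Together they made 841 and 591 CPM, a log2 ratio of 0.51 (0.49 to 0.53). Bax, at 341 and 282 CPM, and Cdkn1a, at 222 and 108 CPM, made the largest parts. The ratio was smallest for Aen and Mdm2, at 0.24 and 0.24, and largest for Cdkn1a, the only member past 2-fold, at 1.04 (0.99 to 1.09). By the same rule 2.32% of the 15464 genes measured over these cells were 2-fold or more higher. The median ratio of the 10 members was 0.61, beside 0.03 for all genes. With the SMA copies of shared barcodes kept, the summed ratio was 0.44 and Cdkn1a was 0.95, under 2-fold. With ratios taken within clusters, Cdkn1a was 1.46, Phlda3 0.94 and the sum 0.52, and 0.501% of all genes were 2-fold or more higher. The pooled cells differed in make-up, with 67 SMA and 601 Con fibroblast-like cells and 609 and 278 ependymal-like cells. The part of this make-up in the pooled ratios was not tested.

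The difference was unevenly spread over the cell classes. Of the 110 pairs of a member and a class, 88 had at least 50 UMIs in the 2 libraries together. Among these, 82 were higher in SMA, 19 of them 2-fold or more, while 6 were lower, none of them 2-fold or more. Without erythroid-like cells, 79 of 85 were higher, 18 of them 2-fold or more. The share of all genes that was 2-fold or more higher ran from 0.501% in OPC-like to 5.62% in fibroblast-like cells. The share of all genes that was 2-fold or more lower was 3.13% over all named non-erythroid cells. By class it was 0.284% in OPC-like, 0.665% in oligodendrocyte-like, 0.757% in COP-like, 0.784% in astrocyte-like, 0.5% in ependymal-like, 0.318% in microglia-like, 1.18% in endothelial-like, 1.55% in erythroid-like, 1.81% in Schwann-like, 2.61% in mural-like and 13% in fibroblast-like cells. By class the median ratio of all genes ran from -0.06 in astrocyte-like to 0.05 in oligodendrocyte-like cells. The counting interval lay above 0 for 53 pairs and spanned 0 for 35, and for no pair did it lie below 0. Intervals were not counted over all genes, so these counts have no background beside them. Another 22 pairs had fewer UMIs, of which 20 were higher and 2 lower. A pair with a level near the 50-UMI minimum could pass it through the SMA library alone, so the 88 are not all pairs. The 22 were 7 in erythroid-like cells, 5 in mural-like, 4 in Schwann-like, 3 in fibroblast-like and 1 each in endothelial-like, ependymal-like and oligodendrocyte-like cells, with Sesn2 in all 7 of these classes. Their ratios ran from -0.79 (Sesn2 in ependymal-like cells, 11 and 9 UMIs) to 2.26 (Ccng1 in mural-like cells, 23 and 15 UMIs). The lower ratios were those of Phlda3 in fibroblast-like cells, Mdm2 in Schwann-like and ependymal-like cells, Trp53inp1 and Zmat3 in ependymal-like cells, and Zmat3 in the committed oligodendrocyte precursors (COP-like).

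**Figure D1:**
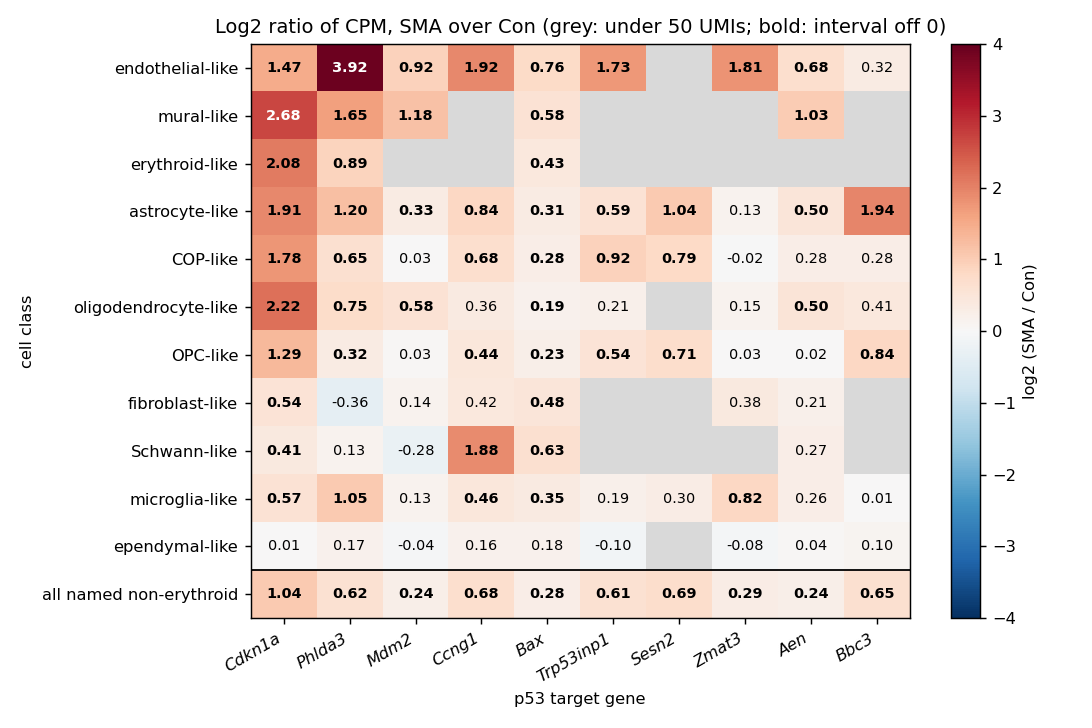
Log2 ratio of CPM, SMA over Con, for the 10 genes (x axis) in 11 cell classes and over all named non-erythroid cells (y axis), printed in each cell of the heat map. The endothelial-like and mural-like rows hold the strongest colours, led by Phlda3 in endothelial-like cells at 3.92, and the ependymal-like row is pale throughout.

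Cdkn1a (ENSMUSG00000023067, chr17:29090976-29100727, plus strand, GRCm38) encodes p21, the inhibitor of cyclin-dependent kinases that carries out p53-dependent cell cycle arrest. It was higher in SMA in all 11 classes and 2-fold or more higher in 7 of them. Astrocyte-like cells had 1998 and 669 UMIs, 239 CPM (228 to 249) in SMA and 63.4 CPM (58.7 to 68.4) in Con, with a log2 ratio of 1.91 (1.79 to 2.04). In mural-like cells, the pericytes and smooth muscle of vessels, the level was 235 CPM (197 to 278) in SMA and 36.6 CPM (28.3 to 46.7) in Con, from 133 and 65 UMIs. The mural ratio, 2.68 (2.24 to 3.13), was the highest of this gene, followed by the oligodendrocyte-like ratio of 2.22 (1.61 to 2.86) from 103 and 29 UMIs. These counting intervals overlapped each other, so the order of the 2 classes was not resolved. The oligodendrocyte-like ratio was 3.87 (3.29 to 4.51) without the upper limit on genes per cell and 2.99 with mitochondrial shares up to 20%. The class was then made mostly of other cells. Of its 300 SMA and 603 Con cells, 27 and 22 were in it without the upper limit, among 140 and 181. With mitochondrial shares up to 20%, 94 and 105 were in it, among 389 and 577.

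Oligodendrocyte precursors (OPC-like) had 91.4 CPM (85.9 to 97.2) in SMA and 37.4 CPM (33.7 to 41.5) in Con of Cdkn1a and a ratio of 1.29 (1.11 to 1.46), and COP-like cells had 35.4 and 10.3 CPM and 1.78 (1.14 to 2.42). In endothelial-like cells the level was 370.4 and 134 CPM, with a ratio of 1.47 (1.31 to 1.63). The highest Con levels of the gene belonged to Schwann-like cells of the nerve roots, with 489.8 CPM (445 to 538) in SMA and 369.6 CPM (343 to 398) in Con and a ratio of 0.41 (0.23 to 0.58). Microglia-like cells came next in level, with 470.2 CPM (455 to 486) in SMA and 316 CPM (302 to 330.4) in Con and 0.57 (0.49 to 0.65). Ependymal-like cells, which line the central canal, had 239 and 112 UMIs, 60.3 CPM (52.9 to 68.4) in SMA and 59.7 CPM (49.1 to 71.8) in Con, and a ratio of 0.01 (-0.32 to 0.35). The classes with the highest Con levels were thus among those with ratios under 2-fold, together with fibroblast-like and ependymal-like cells. Keeping the SMA copies of shared barcodes gave 1.74 in astrocyte-like, 2.14 in mural-like and 1.13 in endothelial-like cells.

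Phlda3 (ENSMUSG00000041801, chr1:135766119-135769136, plus strand) encodes a protein with a pleckstrin homology domain that competes with Akt for membrane lipids and so dampens a survival signal. Its ratio in endothelial-like cells was the largest of all 88 pairs. There the SMA library had 319 UMIs in 327 cells and the Con library 31 UMIs in 439 cells, or 130 CPM (116 to 145) in SMA and 8.61 CPM (5.85 to 12.2) in Con. The log2 ratio was 3.92 (3.38 to 4.50), 3.31 with the SMA copies of shared barcodes kept. Mural-like cells had 77.7 and 24.8 CPM and a ratio of 1.65 (1.01 to 2.28), and astrocyte-like cells 68.9 and 30.0 CPM and 1.20 (1.00 to 1.40). Microglia-like cells, with a low level of 14.2 and 6.86 CPM, had 1.05 (0.52 to 1.60).

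Cells of the oligodendrocyte line differed less in Phlda3. The log2 ratio was 0.32 (0.19 to 0.45) in OPC-like, 0.65 (0.20 to 1.09) in COP-like and 0.75 (0.55 to 0.94) in oligodendrocyte-like cells, the last with 249 and 148 CPM. The oligodendrocyte value was -0.0002 without the upper limit on genes per cell and 1.52 with shared barcodes kept, but the class was then made of other cells. Of the 300 SMA and 603 Con cells of the class, 27 and 22 were in it without the upper limit, among 140 and 181, and 119 and 204 were in it with shared barcodes kept, among 605 and 344. Ependymal-like cells had 0.17 (-0.54 to 0.92) and Schwann-like cells 0.13 (-0.26 to 0.52), and both intervals spanned 0. In fibroblast-like cells the level was 77.7 and 99.71 CPM and the ratio -0.36 (-0.84 to 0.09), the only one below 0 for this gene. Of the 601 Con cells in that class, 431 sat in a cluster with 2 SMA cells, so the class was not made of like cells in both libraries.

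**Figure D2:**
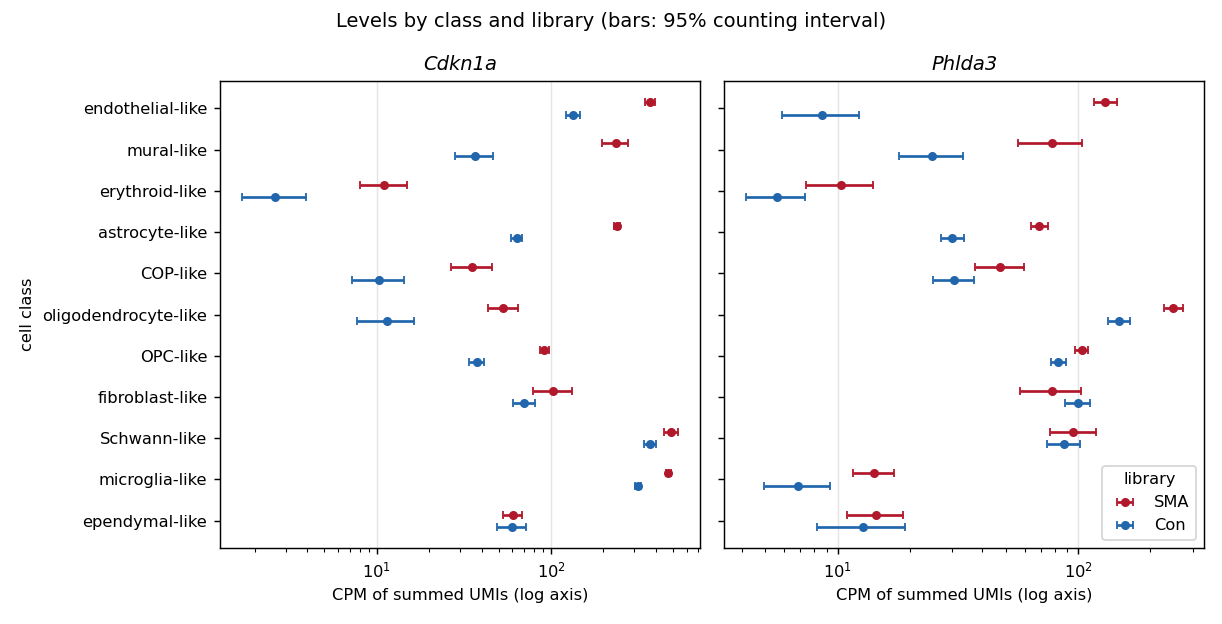
Level of Cdkn1a (left) and Phlda3 (right) in CPM of summed UMIs on a log axis, by class and library, with bars for the 95% counting interval. For Phlda3 the endothelial-like points stand farthest apart, at 130 and 8.61 CPM in SMA and Con, and for Cdkn1a the ependymal-like points overlap, at 60.3 and 59.7 CPM.

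Mdm2 and Ccng1 act in the feedback on p53: Mdm2 is its ubiquitin ligase, and cyclin G1, the product of Ccng1, works with a phosphatase that activates Mdm2. Mdm2 (ENSMUSG00000020184, chr10:117688875-117710758, minus strand) was higher in 8 of the 10 classes in which it was measured, but passed 2-fold in mural-like cells alone, where it had 26 and 36 UMIs and a ratio of 1.18 (0.39 to 1.95). Endothelial-like cells had 40.3 and 21.4 CPM of Mdm2 and 0.92 (0.47 to 1.36). In OPC-like cells, with 520 and 447 UMIs, the levels were 46.6 and 45.5 CPM and the ratio 0.03 (-0.15 to 0.22). Mdm2 was thus near equal between the libraries in the class where it had most UMIs.

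Ccng1 (ENSMUSG00000020326, chr11:40748552-40755311, minus strand) was higher in all 9 classes measured. Endothelial-like cells had 75 and 29 UMIs, 30.6 CPM (24.0 to 38.3) in SMA and 8.05 CPM (5.39 to 11.6) in Con and a ratio of 1.92 (1.29 to 2.60). Schwann-like cells had 41 and 24 UMIs, 46.2 and 12.5 CPM and 1.88 (1.12 to 2.67), the largest ratio of any member in that class among those with 50 UMIs. In astrocyte-like cells the ratio was 0.84 (0.57 to 1.11). Mural-like cells, with 23 and 15 UMIs and so below the minimum, had 2.26 (1.26 to 3.31).

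The 4 apoptosis genes differed in how evenly they were spread. Bax (ENSMUSG00000003873, chr7:45461697-45466898, minus strand) encodes the pore-forming protein of the mitochondrial outer membrane, and was measured in all 11 classes. Its ratio was above 0 in each of them and never reached 2-fold, from 0.18 in ependymal-like to 0.76 in endothelial-like cells. Over all named non-erythroid cells Bax had 13597 and 12955 UMIs, 341 CPM (336 to 347) in SMA and 282 CPM (277 to 287) in Con and a ratio of 0.28 (0.24 to 0.31). The interval lay above 0 in 10 of the 11 classes, as it did for Cdkn1a, at smaller ratios. With the SMA copies of shared barcodes kept, Bax in oligodendrocyte-like cells went from 0.19 to -0.14 (-0.26 to -0.02).

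Bbc3 (ENSMUSG00000002083, chr7:16308393-16318205, plus strand) encodes Puma, a BH3-only protein that frees Bax. In astrocyte-like cells it had 158 and 52 UMIs, 18.9 CPM (16.1 to 22.1) in SMA and 4.93 CPM (3.68 to 6.46) in Con and a ratio of 1.94 (1.48 to 2.42), and in OPC-like cells 344 and 169 UMIs and 0.84 (0.57 to 1.12). In microglia-like cells the levels were near equal, at 23.0 and 22.9 CPM and 0.01 (-0.32 to 0.34). The endothelial-like interval, 0.32 (-0.07 to 0.71), spanned 0, although that class had the largest ratio for 5 of the other members.

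Aen (ENSMUSG00000030609, chr7:78895854-78911209, plus strand) encodes a nuclease that takes part in the breakdown of DNA during apoptosis. It was higher in 10 of 10 classes measured, reached 2-fold in mural-like cells at 1.03 (0.29 to 1.75) with 28 and 43 UMIs, and had 0.02 (-0.15 to 0.18) in OPC-like cells. Trp53inp1 (ENSMUSG00000028211, chr4:11156431-11174379, plus strand) encodes a protein that promotes cell death and autophagy. Endothelial-like cells had 77 and 34 UMIs of Trp53inp1, 31.4 CPM (24.8 to 39.2) in SMA and 9.44 CPM (6.54 to 13.2) in Con and a ratio of 1.73 (1.13 to 2.36). Astrocyte-like, OPC-like and COP-like cells had Trp53inp1 ratios of 0.59, 0.54 and 0.92, each with an interval above 0.

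Sesn2 (ENSMUSG00000028893, chr4:132492032-132510501, minus strand) encodes sestrin 2, a sensor of leucine that restrains the growth kinase mTORC1. It was the least counted member, with 360 and 257 UMIs over all named non-erythroid cells, and reached 50 UMIs in 4 classes. Astrocyte-like cells had 62 and 38 UMIs and a ratio of 1.04 (0.44 to 1.66), and OPC-like cells 145 and 78 UMIs and 0.71 (0.30 to 1.13). Microglia-like cells had 0.30 (-0.26 to 0.87), which spanned 0.

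Zmat3 (ENSMUSG00000027663, chr3:32334792-32366014, minus strand) encodes a zinc finger protein that binds RNA and regulates splicing. Its levels differed most in endothelial-like cells, with 93 and 39 UMIs, 37.9 CPM (30.6 to 46.4) in SMA and 10.8 CPM (7.70 to 14.8) in Con and a ratio of 1.81 (1.25 to 2.39). In OPC-like cells, which had 635 and 547 UMIs, the levels were 56.9 and 55.6 CPM and the ratio 0.03 (-0.14 to 0.20). COP-like cells had -0.02 (-0.49 to 0.43). The astrocyte-like class had 0.13 (-0.14 to 0.39), which joined clusters on opposite sides of 0, at 1.68 (0.99 to 2.40) in cluster 10, -0.51 (-0.98 to -0.06) in cluster 2 and -1.12 (-2.15 to -0.18) in cluster 20. At the level of classes the interval lay above 0 in endothelial-like and microglia-like cells, the latter at 0.82 (0.19 to 1.47), and spanned 0 in the other 6 classes measured.

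Read by class, endothelial-like cells had the most members past 2-fold, 5 of 9 measured, where 1.58% of all genes were 2-fold or more higher. Their median ratio was 1.47, beside 0.01 for the 8303 genes of that class, and the 10 genes summed to 1124 and 487 CPM, a ratio of 1.21 (1.12 to 1.29). Mural-like cells followed with 4 of 5, a background of 1.58% and a sum of 969 and 449 CPM, 1.11 (0.95 to 1.27). Of these 4, Mdm2 was 0.86 and Aen 0.94 without the upper limit on genes, and with every cell weighted equally they were 0.89 and 0.80, so 2 of 5 then passed. With the SMA copies of shared barcodes kept 3 of 5 passed, and Aen was 0.57 (-0.14 to 1.27). These classes of the vessel wall had the largest summed ratios of the 11 classes. Macrophage-like cells, too few to be compared with 38 SMA and 64 Con cells, had 1.18 (0.99 to 1.38). With the SMA copies kept the summed ratios were 0.91 in endothelial-like, 0.89 in mural-like and 1.00 in macrophage-like cells. With mitochondrial shares up to 20%, erythroid-like cells had 1.08 and macrophage-like cells 0.93, above the 0.91 of mural-like cells, while endothelial-like cells had 1.17.

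Astrocyte-like cells had 4 of 10 members past 2-fold, with a background of 0.62%, a median ratio of 0.71 and a sum of 836 and 492 CPM, 0.76 (0.71 to 0.82). In each of the other classes at most 1 member passed 2-fold. These were 1 of 10 in OPC-like (background 0.501%), 1 of 10 in COP-like (0.829%), 1 of 9 in oligodendrocyte-like (1.29%), 1 of 10 in microglia-like (0.894%), 1 of 6 in Schwann-like (1.72%) and 1 of 3 in erythroid-like cells (1.04%). The medians of these 6 classes ran from 0.32 in microglia-like to 0.89 in erythroid-like cells. In OPC-like, COP-like, oligodendrocyte-like and erythroid-like cells the single member was Cdkn1a, in microglia-like cells Phlda3 and in Schwann-like cells Ccng1. The Phlda3 ratio in microglia-like cells, 1.05, was under 2-fold in 5 of 10 alternative settings, from 0.73 without the upper limit on genes to 0.98 with mitochondrial shares up to 20%, and 0.95 with the SMA copies kept. Sesn2, one of the 4 in astrocyte-like cells at 1.04, was also under 2-fold in 5 of 10, from 0.88 to 0.99. Erythroid-like cells had 44 and 24 UMIs of Cdkn1a, a ratio of 2.08 (1.33 to 2.86), and their own expression and free RNA cannot be told apart.

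Ependymal-like cells stood at the other end. None of 9 members passed 2-fold (background 0.598%), the median was 0.04 beside -0.05 for all genes, and all 9 intervals spanned 0. The sum was 423 and 398 CPM, 0.09 (-0.04 to 0.21), from 609 SMA and 278 Con cells. Fibroblast-like cells had 0 of 7 past 2-fold, where 5.62% of all genes were higher by that much. Their genes spread widely, with the central 90% between -1.97 and 1.05, beside -0.64 and 0.64 in endothelial-like cells.

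Set against the genes of its own class, a member lay above the 95th percentile in 35 of the 88 pairs. Endothelial-like cells held 8 of these, astrocyte-like cells 7, COP-like cells 5, and OPC-like and mural-like cells 4 each. The erythroid-like, microglia-like and oligodendrocyte-like classes held 2 each, Schwann-like cells 1, and the ependymal-like and fibroblast-like classes 0. The members were chosen with such results known, so these counts describe the list and no more.

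**Figure D3:**
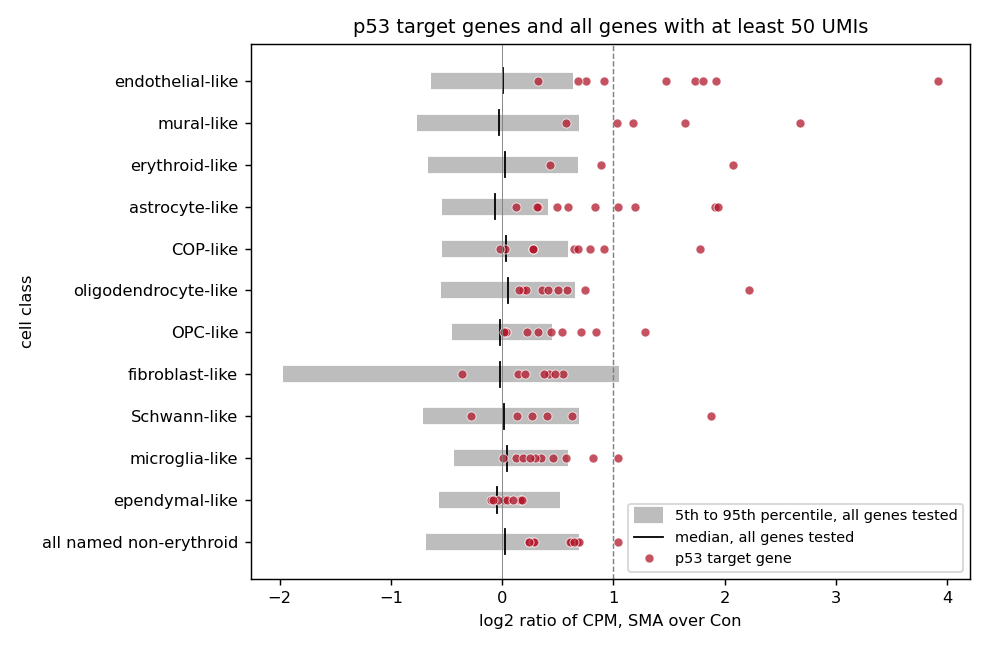
Log2 ratio of CPM, SMA over Con (each gene with at least 50 UMIs), for the members as points over the 5th to 95th percentile and median of all genes in each class. In endothelial-like cells 8 of 9 members lie above the 95th percentile, and in ependymal-like cells all 9 lie within the range.

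The summed ratio did not come from Cdkn1a and Phlda3 alone. Without those 2 genes the other 8 summed to a ratio of 0.32 (0.30 to 0.35) over all named non-erythroid cells. It was 0.86 (0.75 to 0.96) in endothelial-like, 0.76 (0.58 to 0.95) in mural-like, 0.65 (0.47 to 0.83) in Schwann-like and 0.10 (-0.04 to 0.24) in ependymal-like cells. In astrocyte-like cells it was 0.41 (0.35 to 0.47), beside 0.76 (0.71 to 0.82) for all 10. Among the 11 classes the vessel wall again had the highest ratios and ependymal-like cells the lowest. Over all named non-erythroid cells most UMIs of the other 8 were those of Bax, 13597 of 21611 in SMA and 12955 of 19926 in Con. The ratio of Bax alone was 0.28 (0.24 to 0.31) there.

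Clusters within a class differed as well. In the 25 clusters with at least 20 cells in each library, 148 pairs of a cluster and a member had at least 50 UMIs. Of these, 121 were higher in SMA, 37 of them 2-fold or more, and 1 was 2-fold or more lower. Over all genes with 50 UMIs in the same clusters, 0.979% of the 142958 pairs of a gene and a cluster were 2-fold or more higher and 1.13% lower. The interval of the members lay above 0 for 76 pairs and below 0 for 3, and intervals of all genes were not counted.

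Astrocyte-like cells split into 5 clusters. In cluster 10, led by Gfap, Hopx, Cidea and Aqp4 (216 and 327 cells in SMA and Con), all 10 members were higher and their sum was 1165 and 483 CPM, a log2 ratio of 1.27 (1.17 to 1.37). There Cdkn1a had 367 and 51.4 CPM, a log2 ratio of 2.83 (2.58 to 3.10), Phlda3 2.05 (1.66 to 2.45) and Zmat3 1.68 (0.99 to 2.40). Cluster 3, led by Gbx2 and Hes5, had a summed ratio of 0.82 (0.72 to 0.93), and its Bbc3 was counted with 59 and 8 UMIs, 2.89 (1.82 to 4.17). In cluster 20, led by the mitosis genes Pbk and Cdca3, the sum was 0.26 (0.09 to 0.43). The Gfap-led cluster thus had the largest summed ratio and the mitotic cluster the smallest among astrocyte-like cells, a difference that was not tested.

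Phlda3 separated the endothelial-like clusters. Cluster 7, led by Ctla2a, Pglyrp1 and Slc38a5, a set of genes of brain capillaries, held 276 and 369 cells with 312 and 24 UMIs of Phlda3, 150.1 and 7.77 CPM, a log2 ratio of 4.27 (3.67 to 4.94). Cluster 27, led by Gja4, Sox17 and Fbln5, genes known from arteries, held 51 and 70 cells with 7 and 7 UMIs, a ratio of 0.45 (-1.29 to 2.19). In the same cluster 27 Cdkn1a had 93 and 19 UMIs and 2.74 (2.02 to 3.54). Nearly all Phlda3 UMIs of the class were therefore in the capillary-led cluster, while the Cdkn1a difference was present in both.

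Among fibroblast-like cells only cluster 22, led by Mfap4 and Slc6a13, had 20 cells in each library (65 and 170 cells). Its Cdkn1a ratio was 2.85 (2.11 to 3.63) and its sum 0.65 (0.45 to 0.84), beside 0.54 (0.11 to 0.96) and 0.33 (0.16 to 0.50) for the whole class. With the SMA copies of shared barcodes kept, the sum of the class was 0.13 (-0.02 to 0.29), which spanned 0. Of the ependymal-like clusters, number 11, led by the cilia genes Tmem212 and Rsph1, had a Cdkn1a ratio of 0.92 (0.33 to 1.55) and number 16, led by Ecrg4 and Rbp4, -0.44 (-0.87 to -0.01). The near equal level of Cdkn1a in the ependymal-like class was therefore the sum of clusters that went opposite ways.

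**Figure D4:**
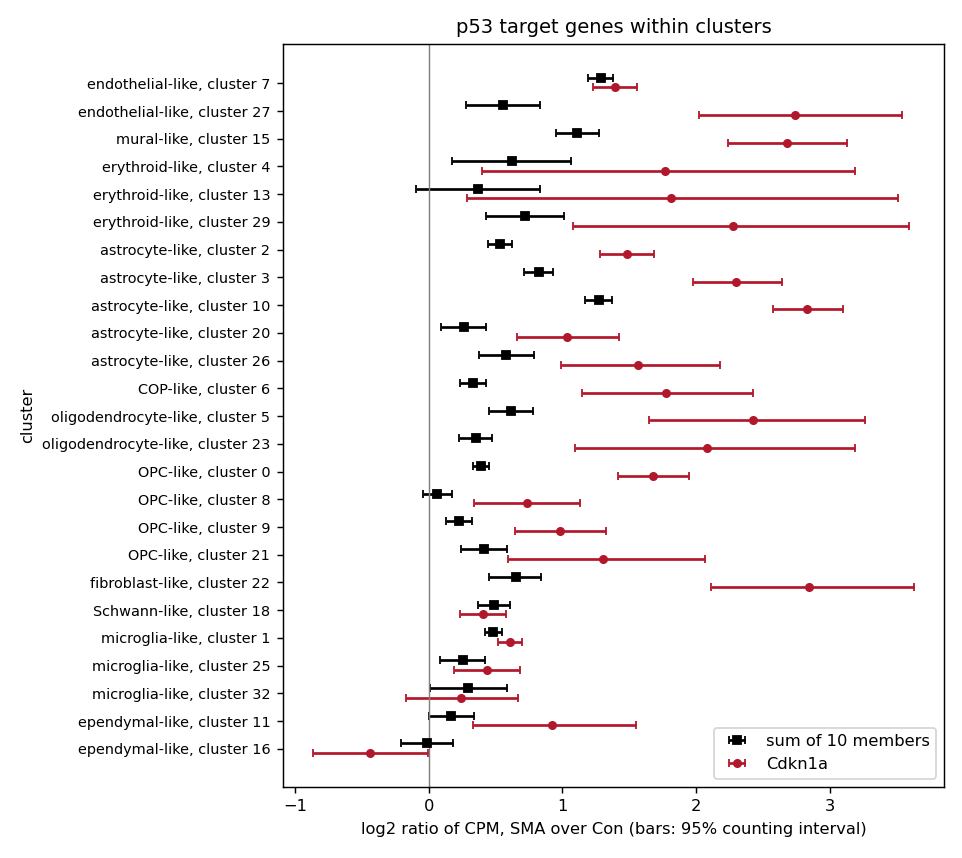
Log2 ratio of CPM, SMA over Con, within each cluster that had at least 20 cells per library, with 95% counting intervals. Squares show the sum of the 10 members and circles show Cdkn1a. Cluster 10 (astrocyte-like) has the largest astrocyte value for Cdkn1a at 2.83.

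To compare shares of cells, each cell was thinned to 1000 UMIs, which left out 23 SMA and 250 Con cells of the named non-erythroid classes. In astrocyte-like cells 15.6% (13.7 to 17.7) of SMA cells and 4.85% (3.84 to 6.03) of Con cells then had a Cdkn1a UMI, beside 49.5% and 21.5% unthinned. The shares were 7.23% (6.10 to 8.48) and 3.48% (2.64 to 4.48) in OPC-like and 14.1% (7.74 to 23.0) and 2.33% (0.858 to 4.99) in mural-like cells. Endothelial-like cells had 26.3% (21.6 to 31.4) and 12.3% (9.38 to 15.7), and microglia-like cells 28.9% (26.1 to 31.8) and 23.6% (20.8 to 26.7). Erythroid-like cells were taken as the level that free RNA can give, which was not tested, at 1.20% (0.392 to 2.79) in SMA and 0 of 962 in Con, where 3 cells would allow a share of up to 0.312%. All 10 shares above stood over the erythroid share of their own library, at median depths of 9731.5 and 9797 UMIs in erythroid-like and 5979 and 6123 in astrocyte-like cells before thinning. Haemoglobin genes made 858010 CPM in SMA and 863910 CPM in Con erythroid-like cells. Thinning thus left few other UMIs in these cells, which sets their share low.

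Phlda3 was found in 11.3% (8.09 to 15.3) of SMA endothelial-like cells, 37 of 327, and in 1.14% (0.371 to 2.64) of Con cells, 5 of 439. Unthinned, these shares were 35.2% and 6.15%, at median depths of 6880 and 7874 UMIs. The erythroid-like shares were 0.723% (0.149 to 2.10) and 0.416% (0.113 to 1.06), so the Con endothelial share was within counting error of this background and the SMA share was not. With most erythroid-like UMIs from haemoglobin genes, this background is a low one.

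Cells with UMIs of several members were also more frequent in SMA. Over all named non-erythroid cells 14.0% (13.2 to 14.9) of SMA and 8.22% (7.59 to 8.89) of Con cells had 2 or more of the 10 genes. The shares were 21.1% (16.8 to 25.9) and 7.74% (5.42 to 10.7) in endothelial-like, 18.5% (11.1 to 27.9) and 4.65% (2.43 to 7.98) in mural-like and 13.6% (11.8 to 15.6) and 5.87% (4.76 to 7.15) in astrocyte-like cells. In ependymal-like cells they were 5.76% (4.04 to 7.92) and 5.42% (3.06 to 8.77), and in erythroid-like cells 0.723% (0.149 to 2.10) and 0.208% (0.0252 to 0.749). Fibroblast-like cells had 4.48% (0.933 to 12.5) and 6.80% (4.86 to 9.21), with intervals that overlapped. The endothelial-like, mural-like and astrocyte-like intervals of the 2 libraries did not overlap, and the ependymal-like intervals did. These shares come from the same UMIs as the levels and are no separate evidence.

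**Figure D5:**
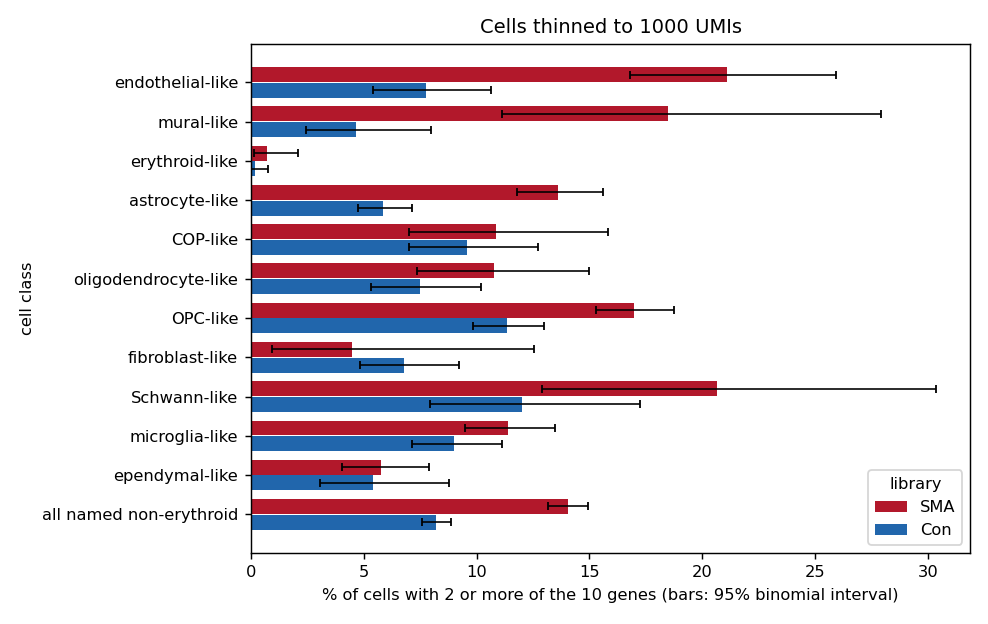
Percent of cells with UMIs of 2 or more of the 10 genes after thinning to 1000 UMIs per cell, by class and library, with 95% Clopper-Pearson intervals. Endothelial-like cells show 21.1% in SMA against 7.74% in Con, and the ependymal-like points nearly coincide.

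The wider pathway was read from lists written with earlier results of these data known. Of 35 other p53 targets, 27 were higher and 8 lower over all named non-erythroid cells, 3 of them 2-fold or more higher and 0 lower by as much, with a median of 0.22. Eda2r, a receptor of the tumour necrosis factor family, had 172 and 61 UMIs and a ratio of 1.70 (1.27 to 2.15). The death receptor Fas had 421 and 232 UMIs and 1.07 (0.83 to 1.30), and the stress cytokine Gdf15 630 and 352 UMIs and 1.05 (0.86 to 1.24). In astrocyte-like cells 5 of 30 measured passed 2-fold higher, where 0.62% of all genes did, and in endothelial-like cells 5 of 19, where 1.58% did. They are named here after their values were seen: Eda2r (2.92), Gdf15 (1.80), Pmaip1 (1.38), Psrc1 (1.19) and Trp53cor1 (1.10) in the former. In the latter they were Dcxr (2.42), Ephx1 (1.88), Fas (1.84), Rps27l (1.21) and Polk (1.12). Most other targets thus leaned the same way over all named non-erythroid cells, with a smaller median than the members.

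In each of the remaining classes at most 3 of the other targets passed 2-fold higher. Those 2-fold or more higher, named after their values were seen, were Btg2 (1.16) and Ier5 (1.16) of 16 in COP-like cells, where 0.829% of all genes passed, Plk2 (1.13) and Gdf15 (1.65) of 12 in mural-like cells (1.58%), and Trp53cor1 (1.71) of 31 in OPC-like cells (0.501%). In Schwann-like cells it was Rps27l (1.34) of 8 (1.72%), in ependymal-like cells Gdf15 (2.01) of 20 (0.598%) and in microglia-like cells Ckap2 (1.01) of 26 (0.894%). None of 13 passed in oligodendrocyte-like (1.29%) and none of 9 in erythroid-like cells (1.04%). Fibroblast-like cells had Perp (1.75), Dcxr (1.70) and Ckap2 (1.12) higher and Gadd45a (-1.03) lower, of 18. Also lower there were Dram1, with 1 and 74 UMIs and a ratio of -4.004 (-9.33 to -1.48), and Plk3, with 2 and 60 UMIs and -2.70 (-5.78 to -0.79). In that class 5.62% of all genes were 2-fold or more higher and 13% lower. The median ran from -0.02 in fibroblast-like, 0.01 in microglia-like and 0.06 in ependymal-like cells to 0.33 in endothelial-like and 0.43 in mural-like cells. Summed, the other targets were lower in SMA in microglia-like cells, -0.22 (-0.25 to -0.19), and in ependymal-like cells, -0.22 (-0.27 to -0.16). The intervals of their sums spanned 0 in erythroid-like cells, -0.10 (-0.23 to 0.03), and in fibroblast-like cells, -0.02 (-0.13 to 0.10), and lay above 0 in the other 7 classes.

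Over all named non-erythroid cells the genes upstream of p53 did not lean either way. Of 23 regulators measured, 12 were higher and 11 lower, none by 2-fold, with a median of 0.02. By class they were less even, with 5 higher and 15 lower in astrocyte-like cells, a median of -0.17 beside -0.06 for all genes. In mural-like cells 8 were higher and 3 lower. Values that follow are again those over all named non-erythroid cells. Trp53 itself had 72.9 and 83.6 CPM, a ratio of -0.20 (-0.27 to -0.13), and Mdm4 had 0.24 (0.13 to 0.34). The largest absolute ratios of that list were those of the checkpoint kinase Chek2 (0.75), the acetyltransferase Kat5 (-0.26) and the phosphatase Ppm1d (0.24). The mRNA level of Trp53 was thus lower in SMA by a small amount while its target list was higher, and the protein was not measured.

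Over all named non-erythroid cells the medians of other genes of the same processes were near the median of all genes. Of 18 further apoptosis genes 6 were higher and 12 lower, with a median of -0.05 and the largest ratios for the BH3-only genes Hrk (0.77) and Bik (-0.67) and for Bak1 (-0.40). The 15 other G1 inhibitors, cyclins and kinases had 6 higher and 9 lower, with a median of -0.02. Among them the p57 gene Cdkn1c (-0.86), Cdk6 (0.42) and Ccne2 (0.33) differed most. Of 11 integrated stress response genes measured, 3 were higher and 8 lower, with Chac1 (-0.83), Nupr1 (-0.58) and Slc3a2 (-0.42) the farthest from 0. None of these lists had a member past 2-fold over all named non-erythroid cells. By class they spread more, and the G1 list summed to a ratio of -0.96 (-1.055 to -0.87) in Schwann-like and 0.54 (0.44 to 0.64) in fibroblast-like cells.

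Some gene groups that the tissue preparation can affect also differed between the libraries. Early response and heat shock genes, which tissue dissociation can raise, had 9 of 14 higher and a median of 0.16, with Hspa1b (-0.82), Hspa1a (-0.67) and Atf3 (0.59) at the extremes. By class their median was 0.86 in COP-like, 0.36 in endothelial-like, 0.34 in erythroid-like, 0.33 in OPC-like, 0.31 in mural-like and 0.28 in oligodendrocyte-like cells. It was 0.11 in ependymal-like, 0.08 in Schwann-like, 0.04 in astrocyte-like, -0.31 in microglia-like and -2.03 in fibroblast-like cells, where 11 of 14 were 2-fold or more lower. Fos, Junb and 2 others of the list passed 2-fold higher in each of the COP-like and OPC-like classes, Fosb and Egr1 in the former and Fosb and Nr4a1 in the latter, and Hspa1a and Hspa1b did in endothelial-like cells. These genes are named after their values were seen.

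All 4 haemoglobin genes were lower over all named non-erythroid cells, with a median of -1.22. All 4 were also lower in 9 of the 11 classes, with medians of -5.56 in Schwann-like, -4.40 in fibroblast-like, -1.84 in astrocyte-like, -1.76 in endothelial-like and -1.48 in oligodendrocyte-like cells. The median was -0.96 in COP-like, -0.85 in OPC-like, -0.61 in microglia-like and -0.28 in mural-like cells. In ependymal-like cells 3 of the 4 were higher, with a median of 0.24, and in erythroid-like cells 2 of 4 were, with a median of -0.02. With haemoglobin and mitochondrial genes left out of the totals, 19 pairs again passed 2-fold, the same number as with them. The part of the early response genes in the results was not tested.

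Genes of S phase and mitosis had 15 of 20 higher and a median of 0.15, led by Ube2c (0.47), Cenpf (0.47) and Birc5 (0.35). By class their median was 0.90 in Schwann-like, 0.76 in microglia-like and 0.39 in erythroid-like cells, and below 0 in the other 8. Among these it was -0.09 in COP-like, -0.11 in OPC-like, -0.12 in astrocyte-like and -0.19 in oligodendrocyte-like cells. It was -0.34 in ependymal-like, -0.35 in mural-like, -0.38 in fibroblast-like and -0.77 in endothelial-like cells. Their part in the member values was not tested.

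The genes whose levels ran most like those of Cdkn1a over the 22 combinations of a class and a library were Hsd17b11 (Pearson's r = 0.877), Sertad1 (0.868), Sat1 (0.86), Srgap2 (0.844) and Fbxo30 (0.837), out of 8709 genes on a log scale. For Phlda3 they were Add1 (0.768), Mical3 (0.75), Nudcd2 (0.747), Cyb5a (0.746) and Srp19 (0.739). Cdkn1a and Phlda3 themselves had an r of 0.184. These points share libraries and depth, so the values are a description.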

How the data were processed

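Whole spinal cord was profiled with 10x Genomics 3' libraries, 1 per group, as labelled. The deposited matrices hold UMI counts per gene and barcode, not normalised. Per the file headers they were written by Cell Ranger 4.0.0, and the submitters' processing notes name Cell Ranger, the mm10 build and Seurat 3.2.2.

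Cells with 200 to 4000 genes and under 10% mitochondrial UMIs were kept, and the upper limit was the only treatment of doublets. SMA barcodes also listed for Con were left out, as was a Con cluster of 1328 cells rich in UMIs of ribosomal protein genes. Cells were scaled to 10000 UMIs, and 2000 variable genes, 30 principal components, 20 neighbours and Louvain resolution 1 gave 33 clusters, named from markers of 18 classes with at least 3 detected. Xist and the genes of every list, except those that were class markers, were kept out of clustering and naming. The haemoglobin genes, as erythroid markers, were not kept out.

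Counts were summed per class and library and divided by the library total of that class, times 1000000 (CPM). Intervals are exact Poisson for levels, exact conditional binomial for ratios and Clopper-Pearson for shares, all at 95%, and a share of 0 was given the limit that 3 counts set. A pair needed 50 UMIs, and called means 2-fold or more. Likeness used log2(CPM + 10) for genes of at least 1000 UMIs. Members and lists were chosen with earlier results of these data known. All members were named, and of other lists Trp53, Mdm4 and the 3 genes with the largest absolute ratio, with exceptions stated. Clusters compared had 20 cells per library. Sequences came from RefSeq tables, and windows on 1 chromosome were not searched. The ratio was tested on simulated data. Alternatives were all SMA barcodes kept, cells of at least 5000 UMIs, mitochondrial shares under 20%, no upper limit on genes, resolution 2, minima of 20 and 200 UMIs, equal weight per cell, totals without haemoglobin and mitochondrial genes, ratios centred on the median or taken within clusters, and thinning to 3000 UMIs. Python 3.11.15, numpy 2.4.6, scipy 1.17.1, scikit-learn 1.9.0 and igraph 0.11.9 were used.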

Additional observations from a re-analysis of the deposited data

Results flagged for a closer look

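Of 33 pairs of a gene and a class with 2 or more clusters measured, 13 had ratios on both sides of 0, and for 2 of them the counting intervals excluded 0 on both sides. The differences between clusters were not tested. In ependymal-like cells the log2 ratio of Cdkn1a was 0.92 in cluster 11 and -0.44 in cluster 16. For Zmat3 in astrocyte-like cells it was 1.68 in cluster 10, -0.51 in cluster 2 and -1.12 in cluster 20. The counting intervals of these 5 values did not include 0, and they cover counting error only.

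The SMA copies of barcodes also listed for Con, which were left out of the main comparison, had a higher summed level of the 10 genes than the Con copies of shared barcodes. Over named non-erythroid cells the sums were 683 CPM (667 to 698) and 596 CPM (589 to 603). By class the SMA and Con copies had 534.7 and 488.7 CPM in astrocyte-like cells, 555.7 and 487.4 CPM in endothelial-like cells, 768.5 and 707.4 CPM in OPC-like cells, and 697.4 and 622.5 CPM in microglia-like cells.

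Macrophage-like cells, with 38 SMA and 64 Con cells and so outside the comparison, had summed levels of 1335 and 588.0 CPM in SMA and Con.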

How the results depend on the processing

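No paired analysis was possible because each group was 1 library, so no replicate could be left out either, and depth limits the rarer members most, with 22 pairs under 50 UMIs. The 19 pairs 2-fold or more higher were 6 of the 46 measured under a minimum of 200 UMIs, a setting that tests fewer pairs, and between 16 and 26 under the other settings. The 4 pairs of the 19 that fell under 2-fold elsewhere were Sesn2 in astrocyte-like, Phlda3 in microglia-like, and Mdm2 and Aen in mural-like cells. No pair was 2-fold or more lower except Bbc3 in 2 classes whose cells were then others. With mitochondrial shares up to 20% it had 8 and 46 UMIs in macrophage-like cells, 78 and 421 cells of which 38 and 64 were macrophage-like before. At Louvain resolution 2 it had 8 and 43 UMIs in erythroid-like cells, of which 4 and 35 lay in a cluster of 17 and 17 cells that were not erythroid-like before. The 3 other targets past 2-fold were 1 with the SMA copies of shared barcodes kept and 6 as ratios within clusters, and the cause was not tested.

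Shares of cells depended on the depth of thinning and on the shared barcodes. At 3000 UMIs Cdkn1a was found in 35.0% of SMA and 12.5% of Con astrocyte-like cells, and Phlda3 in 22.5% and 3.80% of endothelial-like cells. The share with 2 or more members was then 56.9% and 30.6% in endothelial-like and 45.5% and 36.0% in all named non-erythroid cells. With all SMA barcodes kept, Cdkn1a was found in 11.8% of SMA astrocyte-like and Phlda3 in 4.20% of SMA endothelial-like cells. The share with 2 or more members was then 12.6% in SMA and 5.16% in Con endothelial-like cells and 12.3% in all named SMA cells.

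Cdkn1a over all named non-erythroid cells fell under 2-fold with all SMA barcodes kept (0.95) and in cells of at least 5000 UMIs (0.98). As a ratio within clusters it was 1.46. No member ratio that was 2-fold or more changed sign under any of these settings. Of the 88 pairs, 20 with smaller ratios turned sign under at least 1 setting, and for 3 of these the interval after the turn excluded 0. They were Bax, Bbc3 and Trp53inp1 in oligodendrocyte-like cells, which went from 0.19, 0.41 and 0.21 to -0.14, -0.51 and -0.55 with all SMA barcodes kept, when 119 of 605 SMA and 204 of 344 Con cells of that class had been in it before.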

Other observations

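Classes with fewer than 50 cells in a library entered no comparison. Neuron-like cells, 44 SMA and 26 Con, had a summed level of 758 and 861 CPM, a log2 ratio of -0.18 (-0.44 to 0.07). Their Phlda3 was counted with 79 and 74 UMIs, 201 and 281 CPM, a log2 ratio of -0.48 (-0.96 to -0.004), and their Cdkn1a with 64 and 34 UMIs, 163 and 129 CPM, a log2 ratio of 0.34 (-0.29 to 0.98). Motor neurons could not be followed apart from other neurons at this number of cells.

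In macrophage-like cells Cdkn1a had 283 UMIs in 38 SMA cells and 183 UMIs in 64 Con cells, 777 and 285 CPM, a log2 ratio of 1.45 (1.17 to 1.72). Mdm2 there had 71.4 and 28.1 CPM, a log2 ratio of 1.35 (0.42 to 2.30). Monocyte-like cells, 20 SMA and 297 Con, had a summed level of 577 and 673 CPM, a log2 ratio of -0.22 (-0.67 to 0.20).

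The SMA copies of shared barcodes had 106 CPM (99.96 to 112) of Cdkn1a over named non-erythroid cells. The Con copies of shared barcodes had 103 CPM (99.56 to 106) and SMA barcodes not listed for Con 218 CPM (214 to 223). For Phlda3 the same 3 sets had 93.1 CPM (87.4 to 99.04), 44.9 CPM (42.9 to 46.9) and 74.8 CPM (72.2 to 77.6). Within classes the Phlda3 levels of the SMA and Con copies were 86.7 and 81.7 CPM in OPC-like, 36.6 and 29.5 CPM in astrocyte-like and 10.9 and 6.73 CPM in endothelial-like cells. The SMA cells used in the comparisons had 103, 68.9 and 130 CPM in the same 3 classes. In Phlda3 the SMA copies were thus nearer to the Con copies than to the other SMA cells in each of these 3 classes, and microglia-like cells were not among them. Over all named non-erythroid cells the SMA copies were nearer to the SMA barcodes not listed for Con.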
